A study of Gallus gallus with 20 samples.

Results

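Scutate scales of chicken embryos that misexpressed Grem1 were compared with scales that carried the green fluorescent protein (GFP) control, with 2 libraries in each group. These are 4 of the 20 libraries of the series, taken by their labels, and the comparison covers the 16290 genes of the expression table. All tissue came from White Leghorn embryos on embryonic day 16. The other groups are normal feather (dorsal skin), scales of embryos given retinoic acid (RA), and scales misexpressing beta-catenin, Sox2, Sox18, Spry2 or the construct Zic1-deltaC. Both Grem1 and GFP were delivered in RCAS, a replicating avian retroviral vector. The labels describe virus placed in the amniotic cavity and hind limb on embryonic day 3, or plasmid followed by electroporation, and do not say which was used for a given library. No untreated scale without virus is among the groups, and the labels of the RA scales name no virus. The labels give no share of infected cells and no statement that replicates were separate embryos. The p-values here therefore measure only the spread between libraries, pooled over all 9 groups of the series.

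Grem1 is a secreted protein that binds bone morphogenetic proteins (BMPs) and keeps them from their receptors. BMP signalling takes part in the patterning of bird skin, where it acts in the balance between scale and feather formation and in the shaping of feather branches. The hard surface of scales, claws and feathers is built from beta-keratins (corneous beta-proteins), which birds and reptiles have and mammals lack, while alpha-keratins form the intermediate filaments of all vertebrate epithelia and change with the layer and state of the epidermis. The table names 180 keratins by class, chromosome and number, such as Chr25_Claw4, and the classes used here (feather FK, claw, scale, feather-like FL, keratinocyte Ktn and the alpha-keratin KRT genes) were read from those names.

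Expression was given as RPKM, reads per length of gene and per library total. Levels were compared as log2(RPKM + 1), which understates the change of genes at low levels, and a gene was called changed at a limma adjusted p below 0.05. Of the 16290 genes, 11863 were tested, among them 163 of the 180 keratins. The other 17 keratins, 13 of feather, 2 of scale and 2 of keratinocyte type, were near 0 and did not enter the test. The labelled tissue could be checked with its own structural genes, since claw keratins summed to at least 17796.6 RPKM and scale keratins to at least 18925.8 RPKM in each of the 4 libraries. The table pairs no other gene with a name, so the level of Grem1 itself and of BMP pathway, dermal or muscle genes was not looked up here. In whole tissue, fewer cells of a type and less RNA per cell cannot be told apart.

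Summed RPKM was 434000 and 434600 in the GFP libraries and 403500 and 400700 in the Grem1 libraries, and the number of reads behind these values is unknown. Keratins took 22.3% and 25.3% of that sum in GFP and 18.6% and 20.6% in Grem1. Pearson's r across genes, which are not independent replicates, was 0.989 between the GFP libraries and 0.993 between the Grem1 libraries, and 0.939 to 0.947 between groups. The median difference between replicates, in log2, was 0.11 for GFP and 0.12 for Grem1 over all genes, and 0.28 and 0.48 over keratins.

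Grem1 scales differed from GFP scales in many genes by a little and in a small group, rich in keratins, by a lot. limma called 3724 of 11863 genes, 31.4%, of which 1561 (13.2%) were higher and 2163 (18.2%) lower in Grem1. The median log2 difference over all genes was -0.05, and from the 5th to the 95th percentile genes ran from -0.67 to 0.66. The majority of lower genes depended on scaling. With each library scaled by its median ratio to the others, 2247 were higher and 1993 lower, so that 53% of calls were higher in place of 41.9%, while the median of all genes moved by 0.05. The counts also rested on single libraries, with 1314 lower without GFP replicate 1, 926 higher and 1325 lower without Grem1 replicate 1, and 1417 lower without Grem1 replicate 2. Calls were somewhat more frequent among weakly expressed genes, at 33.9% in the lowest of 4 equal bins of mean level and 28.4% in the highest.

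Large changes were few. Past a 2-fold change on the log2(RPKM + 1) scale, 249 called genes were higher and 226 lower. Past 4-fold, 56 were higher and 59 lower, and 21 and 22 of these were keratins, although keratins made up only 163 of the genes tested. Over all sizes, 37 keratins were called higher and 42 lower, and 84 were not called. Higher and lower calls were divided unevenly among the classes of keratins, as described next.

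**Figure D1:**
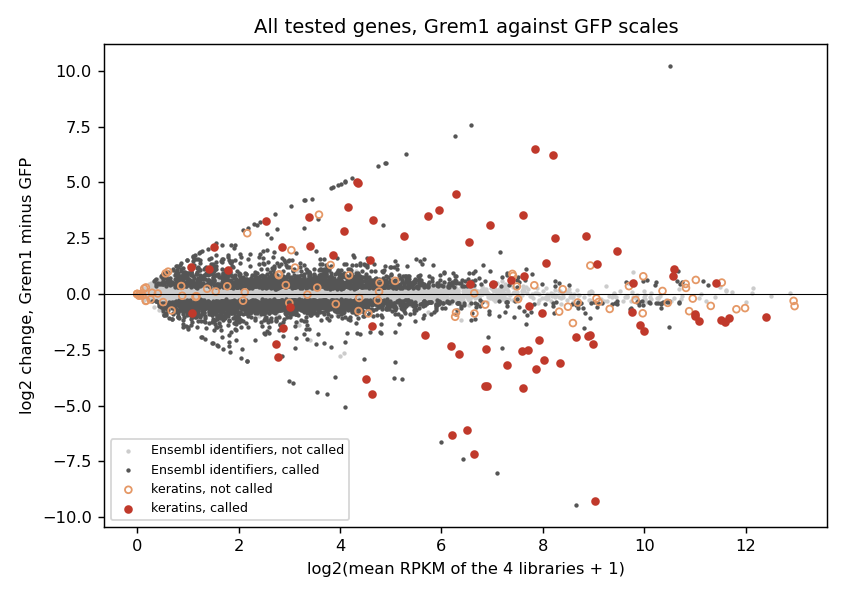
Each point is 1 tested gene, with its level on the x axis (log2 of the mean RPKM of the 4 libraries, plus 1) and its log2 change from GFP to Grem1 on the y axis; large red points are called keratins, open orange points keratins not called, dark points other called genes and grey points the rest. Most called genes lie close to 0, and keratins make up 21 of the 56 called genes that were more than 4-fold higher and 22 of the 59 that were more than 4-fold lower.

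Where 13.2% of all genes tested were called higher and 18.2% lower, the alpha-keratins were the class with the most rises. Of 33 alpha-keratins, 19 were called higher, 4 lower and 10 not called. Their median log2 change was 0.51, against -0.05 over all genes tested. Their summed level went from 14485.9 and 15627.2 RPKM in the GFP libraries to 17701.5 and 16827.9 RPKM in the Grem1 libraries, and the groups did not overlap. The means were 15060 ± 807 and 17260 ± 618 RPKM (SD, n = 2 each), a ratio of 1.15. This was the highest mean alpha-keratin sum of the 9 groups of the series.

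The simple-epithelium keratins KRT7, KRT8, KRT18, KRT19 and KRT20, which in mammals form the filaments of single-layered epithelia and of embryonic surface cells, were all called higher. Their summed level was 145 and 150.6 RPKM in GFP and 365 and 261.3 RPKM in Grem1, 2.12-fold higher by the means. KRT19 stood at 4 and 2.9 RPKM in GFP and at 58.2 and 31.9 RPKM in Grem1. Both Grem1 libraries lay far above both control libraries (log2 change 3.32, SE 0.39, limma adjusted p = 9.93e-06). KRT18, the usual filament partner of KRT8, was at 1.9 and 1.6 RPKM in GFP and at 10.8 and 10.5 RPKM in Grem1 (2.08, SE 0.22, limma adjusted p = 4.22e-06). KRT8 was already abundant in the control, at 137.1 and 144.4 RPKM, and reached 289 and 213.2 RPKM (0.81, SE 0.17, limma adjusted p = 0.00217). KRT7 and KRT20 stayed scarce in both groups, at no more than 1.3 RPKM in GFP and between 2.2 and 3.9 RPKM in Grem1, with no overlap in either gene. Each of these simple-epithelium keratins had a higher value in some library outside Grem1. The highest were 62.6 RPKM for KRT19, 21.3 RPKM for KRT18 (normal feather) and 311.4 RPKM for KRT8. For KRT7 and KRT20 they were 32.2 and 6.4 RPKM.

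Of the suprabasal keratins, which in mammals mark cells that have left the basal layer, KRT1 rose and KRT10 did not pass the test. KRT1 was at 163.3 and 132.7 RPKM in GFP and at 422.7 and 348.4 RPKM in Grem1 (log2 change 1.38, SE 0.27, limma adjusted p = 0.00111). KRT10, the most abundant alpha-keratin of the control after KRT6A, was at 2670.4 and 2217 RPKM in GFP and at 3326.6 and 3612.9 RPKM in Grem1. The KRT10 libraries did not overlap, yet the change of 0.51 missed the threshold (SE 0.22, limma adjusted p = 0.0903). It passed with quantile normalization (limma adjusted p = 0.00251) and with only the GFP, Grem1, beta-catenin and Spry2 groups in the fit (0.0417).

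The basal-layer keratins KRT5, KRT14 and KRT15, which in mammals fill the proliferating cells at the base of the epidermis, did not move together. Their summed level was 3087 ± 153 RPKM in GFP and 3036 ± 95.9 RPKM in Grem1. KRT14 fell, from 1022.3 and 1187.8 RPKM to 631.8 and 620.3 RPKM (log2 change -0.81, SE 0.16, limma adjusted p = 0.00134). KRT15 rose, from 774.3 and 682 RPKM to 1101.3 and 969.1 RPKM (0.51, SE 0.17, limma adjusted p = 0.0297). KRT5 stood at 1182.1 and 1324.9 RPKM in GFP and at 1370.7 and 1378.8 RPKM in Grem1 (0.14, SE 0.17, limma adjusted p = 0.579). The KRT15 call ended when any 1 of the 4 libraries was left out, with limma adjusted p between 0.05 and 0.178.

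The keratins that mammalian epidermis raises on wounding, KRT6, KRT16 and KRT17, changed in their composition more than in their sum. The 6 genes summed to 5355 ± 108 RPKM in GFP and to 5627 ± 4.17 RPKM in Grem1, a ratio of 1.05, and 4 were called higher and 1 lower. KRT6A fell from 2709.7 and 2769.2 RPKM to 1339.4 and 1428.9 RPKM (log2 change -0.99, SE 0.17, limma adjusted p = 0.000405). KRT6B rose from 114.7 and 148.7 RPKM to 855.5 and 730.6 RPKM (2.59, SE 0.27, limma adjusted p = 3.61e-06), and KRT6C from 2261.6 and 2292.2 RPKM to 3133.8 and 3236.8 RPKM (0.48, SE 0.16, limma adjusted p = 0.0283). The KRT6C call ended when any 1 of the 4 libraries was left out, with limma adjusted p between 0.0873 and 0.115. Summed to 1 feature, the 3 KRT6 genes stood at 5148 ± 87.8 and 5362 ± 47.8 RPKM and were not called (0.06, SE 0.15, limma adjusted p = 0.802). How the authors' counting divided reads among similar copies was not tested. In the beta-catenin libraries KRT6A was at 2468 and 2330.4 RPKM, near its control level, and in the Spry2 libraries at 1559.6 and 1763.8 RPKM, near its level in Grem1. KRT6B was at 211.3 and 261.7 RPKM in beta-catenin and at 707.4 and 693 RPKM in Spry2. It was called higher in Grem1 against beta-catenin (limma adjusted p = 0.000167) and not called against Spry2 (0.658).

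The KRT16 copies rose both singly and together. KRT16A went from 11 and 8.7 RPKM in GFP to 69.8 and 59.6 RPKM in Grem1, and KRT16B from 1.1 and 1.4 RPKM to 36.6 and 28 RPKM. No Grem1 library came near a control library in either gene. Summed, they were at 11.1 ± 1.41 and 97 ± 13.3 RPKM, 8.74-fold higher (log2 change 3.02, SE 0.39, limma adjusted p = 3.27e-05). The KRT16 sum was also raised in beta-catenin (40.8 and 103.9 RPKM) and in Spry2 (117.9 and 141.4 RPKM). Grem1 was not called against either group (limma adjusted p = 0.33 and 0.445). KRT17 was at 180.1 and 210.7 RPKM in GFP and at 188.9 and 146 RPKM in Grem1, with overlap and no call (limma adjusted p = 0.409).

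KRT13 and KRT4, the keratin pair of internal stratified epithelia such as the oesophagus in mammals, gave a similar picture. KRT13C rose from 42.2 and 21.4 RPKM to 378.8 and 338.4 RPKM (log2 change 3.53, SE 0.27, limma adjusted p = 7.44e-08). In beta-catenin KRT13C was at 154 and 266.6 RPKM, and Grem1 was called higher (limma adjusted p = 0.0345). In Spry2 it was at 284.5 and 403.9 RPKM, and Grem1 was not called (0.851). KRT13B fell from 1114.5 and 1673.9 RPKM to 601.6 and 452.1 RPKM (-1.39, SE 0.23, limma adjusted p = 0.000261). KRT13A rose from 951.3 and 1242.3 RPKM to 2136.2 and 1698.7 RPKM (0.81, SE 0.29, limma adjusted p = 0.0439). Among other alternatives, this call ended with a pseudocount of 0.1 and with only the GFP and Grem1 groups in the fit. With KRT13A included, the copies summed to 2523 ± 587 RPKM in GFP and 2803 ± 444 RPKM in Grem1 and were not called (0.16, SE 0.20, limma adjusted p = 0.573). KRT4, which has no lettered copy in the table, rose from 130.9 and 130 RPKM to 195 and 206.5 RPKM (0.62, SE 0.14, limma adjusted p = 0.00409).

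KRT73 and KRT84, which mammals use in hair and nail, stood among the large alpha-keratin changes, but KRT74, KRT75A, KRT75B and KRT79 were not called. KRT73, a keratin of the inner root sheath of mammalian hair follicles, had the largest log2 change of the class. It was at 5.5 and 4.6 RPKM in GFP and at 217.3 and 83.1 RPKM in Grem1 (4.49, SE 0.39, limma adjusted p = 3.88e-07). Its 2 Grem1 libraries differed by more than the whole control level, but both lay above it. KRT84, of the hair and nail keratin family in mammals, went from 3.5 and 2.3 RPKM to 12.6 and 20.1 RPKM (2.14, SE 0.35, limma adjusted p = 0.000252). KRT74, more abundant than either, was at 292.2 and 672.5 RPKM in GFP and at 357.2 and 324.7 RPKM in Grem1 (-0.38, limma adjusted p = 0.41). KRT79 was at 13.2 and 30.4 RPKM in GFP and at 16.2 and 19.3 RPKM in Grem1 (-0.18, limma adjusted p = 0.736). Both overlapped between the groups. KRT75A, a companion-layer keratin in mammals that is also used in feathers, was at 198.2 and 194.3 RPKM in GFP and at 265 and 250.1 RPKM in Grem1. The groups did not overlap, and the change of 0.39 was not called (SE 0.18, limma adjusted p = 0.115), except with only the GFP and Grem1 groups in the fit (0.0434). KRT75B was at most 0.7 RPKM in these 4 libraries. In normal feather KRT75B was at 177.2 and 299.7 RPKM and KRT75A at 96.2 and 104.5 RPKM.

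**Figure D2:**
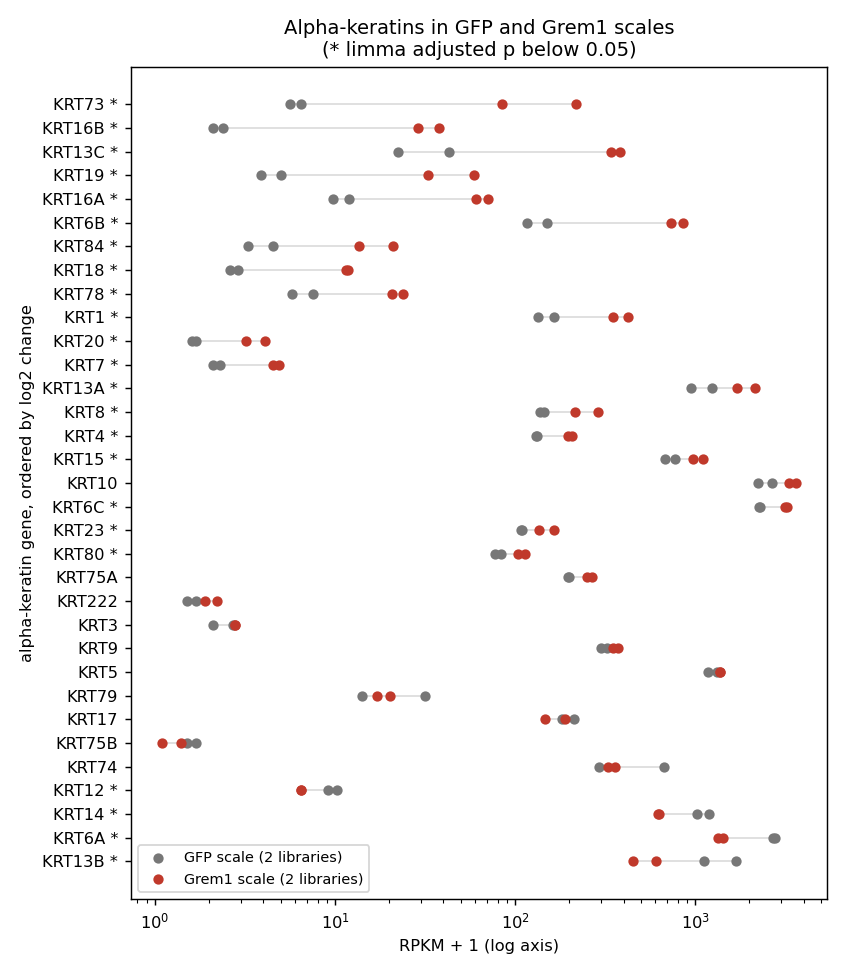
Each row is 1 of the 33 alpha-keratins, ordered by log2 change, with the RPKM + 1 of the 2 GFP libraries (grey) and the 2 Grem1 libraries (red) on a log axis and a star where limma's adjusted p was below 0.05. The rows at the top, KRT73, KRT16B, KRT13C and KRT19, show both Grem1 libraries well to the right of both control libraries, and only KRT13B, KRT6A, KRT14 and KRT12 were called lower.

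The claw keratins formed the largest beta-keratin sum of the control scale, and that sum was lower in Grem1. Their sum was 35110.4 and 41691.4 RPKM in GFP and 17796.6 and 26273.2 RPKM in Grem1. The groups did not overlap, and the control mean of 38400 ± 4650 RPKM was 1.74-fold above the Grem1 mean of 22030 ± 5990 RPKM. Of 12 claw keratins, 7 were called lower and 1 higher, where 18.2% and 13.2% of all genes tested were. The median log2 change over the class was -0.95. Both Grem1 libraries lay below both control libraries in 10 of the 12, where 37.2% of all tested genes did so.

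Single claw keratins moved unlike each other. Chr25_Claw10 fell most, from 1419.7 and 1659.3 RPKM to 382.2 and 617.7 RPKM, 3.08-fold lower (log2 change -1.66, SE 0.31, limma adjusted p = 0.000819). Chr25_Claw9, the most abundant, fell from 6526.3 and 7965.7 RPKM to 3010.3 and 4198.3 RPKM (-1.02, SE 0.29, limma adjusted p = 0.014). Chr25_Claw2 was at 1908 and 2312.3 RPKM in GFP and at 1455.5 and 2276.5 RPKM in Grem1, so its groups overlapped. Chr25_Claw11 was the 1 claw keratin called higher, from 894.1 and 1021.2 RPKM to 1735.8 and 2516.7 RPKM (1.13, SE 0.34, limma adjusted p = 0.0185).

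These claw calls rested on few libraries. All 12 claw keratins were higher in Grem1 replicate 2 than in replicate 1. The number called lower went from 7 to 4 without GFP replicate 1, to 1 without GFP replicate 2, to 1 without Grem1 replicate 1 and to 6 without Grem1 replicate 2. It was 5 with median-ratio scaling and 4 with quantile normalization, where Chr25_Claw8, Chr25_Claw12 and Chr25_Claw9 were no longer called, and 3 with only the GFP, Grem1, beta-catenin and Spry2 groups in the fit. The rise of Chr25_Claw11 ended in that last fit, with a pseudocount of 0.1, and without GFP replicate 1 or Grem1 replicate 2. The ratio of the sums stayed below 1 with any single library left out, between 0.463 and 0.684.

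The scale keratins were lower in sum but mostly not called one by one. Their sum was 25380.7 and 27048.4 RPKM in GFP and 18925.8 and 21422.1 RPKM in Grem1, without overlap, and the means gave a 1.3-fold higher control. Of 16 tested, 3 were called higher, 1 lower and 12 not, where 13.2% of all genes tested were higher and 18.2% lower. The median log2 change of the class was 0.02. The abundant members gave the sum its direction. Chr25_scale15 was at 9189.5 and 9802.2 RPKM in GFP and at 6262.6 and 6755 RPKM in Grem1, with a change of -0.55 that was not called (SE 0.35, limma adjusted p = 0.25). Chr25_scale17 went the other way, with 1598.6 and 1648.2 RPKM in GFP and 2276.8 and 2769.3 RPKM in Grem1, also without a call (limma adjusted p = 0.145).

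The scale keratins that rose were minor ones. Chr25_scale10 was at 0.7 and 0.8 RPKM in GFP and at 15.3 and 20.9 RPKM in Grem1 (log2 change 3.43, SE 0.22, limma adjusted p = 6.09e-09). In the beta-catenin libraries it was also raised, at 34 and 23.7 RPKM. Chr25_scale12 rose to at most 2.4 RPKM and Chr25_scale13 to at most 39.1 RPKM, while Chr25_scale11 fell from 10.9 and 9 RPKM to 3.1 and 2.5 RPKM. The calls of Chr25_scale11 and Chr25_scale13 ended without GFP replicate 1 and without Grem1 replicate 2.

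**Figure D3:**
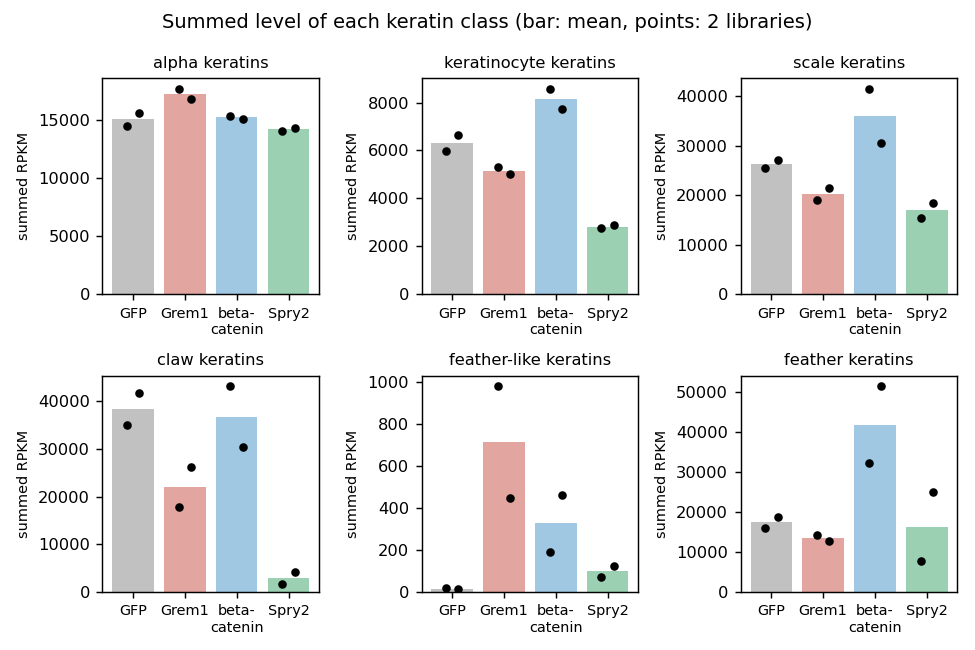
Bars give the mean and points the 2 libraries of the summed RPKM of each keratin class in GFP, Grem1, beta-catenin and Spry2 scales, each panel on its own linear axis from 0. Claw keratins average 22030 RPKM in Grem1, between the control at 38400 and Spry2 at 2901 RPKM, while the 3 feather-like keratins reach 713 RPKM in Grem1 against 13.55 in the control.

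The 3 feather-like keratins rose the most as a class. Their sum was 16.3 and 10.8 RPKM in GFP and 978.5 and 447.5 RPKM in Grem1, 52.6-fold higher by the means. The Grem1 libraries differed from each other by more than 2-fold, yet both were far above the control. Without Grem1 replicate 1 the ratio was 33, and without Grem1 replicate 2 it was 72.2. All 3 genes were called higher under each alternative tried. Chr25_FL2 made up most of the sum, at 7.4 and 5.3 RPKM in GFP and 781.7 and 370.8 RPKM in Grem1 (log2 change 6.21, SE 0.42, limma adjusted p = 1.52e-08). Chr25_FL1 went from 8.8 and 5.3 RPKM to 141.2 and 55.2 RPKM (3.51, SE 0.36, limma adjusted p = 2.63e-06). Chr25_FL3 was close to 0 in the control, at 0.1 and 0.2 RPKM, and reached 55.6 and 21.5 RPKM (4.96, SE 0.40, limma adjusted p = 1.61e-07). Normal feather held little of these transcripts, at 24.7 ± 6.22 RPKM in sum, and the group with the highest mean was Sox18, at 1187 ± 84 RPKM (n = 3).

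The keratinocyte keratins were lower in sum, at 5978.3 and 6652.6 RPKM in GFP and 5297.5 and 5014.4 RPKM in Grem1. Of 14 tested, 1 was called higher and 5 lower, where 13.2% of all genes tested were higher and 18.2% lower. Chr25_Ktn11 fell from 759.5 and 921.6 RPKM to 158.7 and 198.1 RPKM (log2 change -2.23, SE 0.38, limma adjusted p = 0.00035). Chr25_Ktn13 fell from 721.7 and 771.4 RPKM to 202.7 and 204.6 RPKM (-1.87, SE 0.34, limma adjusted p = 0.000689). Chr25_Ktn4 was the 1 that rose, from 110 and 72.5 RPKM to 584.1 and 438 RPKM (2.49, SE 0.36, limma adjusted p = 9.89e-05). Its Grem1 libraries were above all 18 others of the series, of which the highest had 348.2 RPKM. The number called lower went to 3 without GFP replicate 2 or without Grem1 replicate 2.

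**Figure D4:**
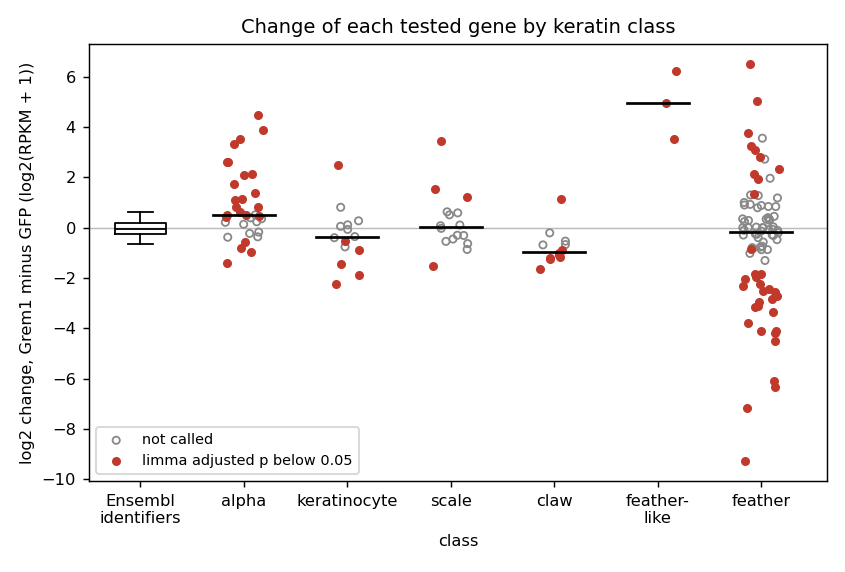
Each point is the log2 change from GFP to Grem1 of 1 tested keratin, filled where limma's adjusted p was below 0.05, with a bar at the class median; the box on the left gives the median, quartiles and the 5th and 95th percentiles of the genes with an Ensembl identifier. Alpha-keratins lie mostly above 0 (median 0.51), claw keratins mostly below (median -0.95), and feather keratins spread from -9.28 to 6.51.

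Feather keratins were called lower more often than higher. Their sum was 15949.8 and 18785.5 RPKM in GFP and 14162.6 and 12576.4 RPKM in Grem1, against 505600 ± 61100 RPKM in normal feather. Of 84 tested, 10 were called higher and 25 lower, with a median log2 change of -0.17. Over all genes tested 13.2% were called higher and 18.2% lower, so the share of feather keratins called higher was no larger than that of all genes. The 10 rises became 6 without GFP replicate 2 or without Grem1 replicate 1. Genes named for chromosome 27 and for chromosome 25 differed. Of 44 tested genes named for chromosome 27, 3 were higher and 21 lower, with a median of -0.95. Of 13 named for chromosome 25, 4 were higher and none lower, with a median of 0.79. The 15 tested genes on unplaced sequence named for chromosome 27 split evenly, with 3 higher, 3 lower and a median of 0.03.

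The chromosome 27 genes summed to 6553.1 and 9740.4 RPKM in GFP and to 1956.1 and 2918.2 RPKM in Grem1. The groups did not overlap, and the control mean of 8147 ± 2250 RPKM was 3.34-fold above the Grem1 mean of 2437 ± 680 RPKM. The largest fall of any keratin was that of Chr27_FK13. It was at 869.4 and 1204 RPKM in GFP and at 0.8 and 0.5 RPKM in Grem1, 1590-fold lower (log2 change -9.28, SE 0.37, limma adjusted p = 5.96e-12). The gene was thus among the abundant feather keratins of the control scale and close to 0 in both Grem1 libraries. It was similarly low in the Spry2 libraries, at 0.6 and 2 RPKM, and at 209 and 257.5 RPKM in the beta-catenin libraries.

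Chr27_FK21 was at 127 and 267.7 RPKM in GFP and at 0 and 0.7 RPKM in Grem1 (log2 change -7.15, SE 0.40, limma adjusted p = 1.06e-09). Chr27_FK34 was at 92.1 and 199.3 RPKM in GFP and at 0.9 and 0.5 RPKM in Grem1 (-6.34, SE 0.58, limma adjusted p = 7.77e-07), and its Grem1 libraries were below all 18 others of the series. Both genes were thus below 1 RPKM in both Grem1 libraries. ChrUn27_FK8, on unplaced sequence named for chromosome 27, fell from 127.9 and 228 RPKM to 1.2 and 1.9 RPKM (-6.09, SE 0.61, limma adjusted p = 1.98e-06). ChrUn27_FK13 fell from 28.6 and 64.2 RPKM to 0.8 and 1.1 RPKM (-4.50, SE 0.46, limma adjusted p = 2.63e-06). In Spry2, ChrUn27_FK8 and ChrUn27_FK13 were similarly low, averaging 0.45 and 1.25 RPKM, and Grem1 was not called. Chr27_FK21 and Chr27_FK34 were called lower in Grem1 against Spry2 (limma adjusted p = 0.00429 and 3.21e-05). In Spry2 Chr27_FK34 was at 22.2 and 68.7 RPKM. Chr27_FK21 was at only 2.3 and 4.7 RPKM there, also far below GFP, so its call rests on low values in both groups.

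The other named falls lost most, but not all, of their transcript. Chr27_FK14 went from 255.4 and 482.4 RPKM to 12.4 and 26.7 RPKM, 18.9-fold lower. Chr27_FK31 went from 144.7 and 293.1 RPKM to 10.9 RPKM in both libraries, 20.1-fold lower. Chr27_FK8 went from 162.2 and 285 RPKM to 10.1 and 13.2 RPKM, 19.2-fold lower. In each of these genes GFP replicate 2 was the higher control, and both controls lay above both Grem1 libraries. Chr27_FK16, Chr27_FK15, Chr27_FK29 and Chr27_FK12 changed by -3.80, -3.35, -3.17 and -3.11 on the log2 scale, with limma adjusted p between 2.39e-05 and 0.00116. Set against Spry2, Grem1 was not called in Chr27_FK14, Chr27_FK8, Chr27_FK16, Chr27_FK15 and Chr27_FK12. It was called lower in Chr27_FK31 and Chr27_FK29 (limma adjusted p = 1.27e-05 and 0.0119).

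Few chromosome 27 genes rose, and their control levels were below 10 RPKM. Chr27_FK37 was at 0 and 0.1 RPKM in GFP and at 58 and 18.7 RPKM in Grem1 (log2 change 5.02, SE 0.63, limma adjusted p = 2.14e-05). Chr27_FK45 was at 5.8 and 8.4 RPKM in GFP and at 156.1 and 73.1 RPKM in Grem1 (3.75, SE 0.71, limma adjusted p = 0.000856). In normal feather Chr27_FK45 averages 30940 RPKM, so the Grem1 level is a small part of it. Both Chr27_FK37 and Chr27_FK45 were also raised in beta-catenin and Spry2. Chr27_FK45 averaged 2125 and 1784 RPKM there, and Grem1 was called lower against each (limma adjusted p = 0.000294 and 0.000842). Chr27_FK37 averaged 108 and 69.85 RPKM there, and Grem1 was not called against either (0.0774 and 0.336). Chr27_FK46, whose values were within 2% of those of Chr27_FK45 in the feather and RA libraries, was at 5.8 and 8.4 RPKM in GFP and at 23 and 15.1 RPKM in Grem1 and was not called (limma adjusted p = 0.159). Summed, the pair stood at 14.2 ± 3.68 and 133.6 ± 64.3 RPKM and was called higher (3.08, SE 0.71, limma adjusted p = 0.0036).

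The largest rise by log2 change was that of Chr27_FK1, beside a fall of Chr27_FK2. Chr27_FK1 was at 1.7 and 7.6 RPKM in GFP and at 330.8 and 577 RPKM in Grem1 (6.51, SE 1.27, limma adjusted p = 0.00115). It averaged 199 RPKM in beta-catenin and 163.1 RPKM in Spry2, and Grem1 was not called against either (limma adjusted p = 0.564 and 0.345). Chr27_FK2 was at 668.9 and 833.2 RPKM in GFP and at 164.5 and 268.8 RPKM in Grem1 (-1.82, SE 0.62, limma adjusted p = 0.0338). Both genes separated the groups without overlap, in opposite directions. Their sum was 755.7 ± 120 RPKM in GFP and 670.6 ± 248 RPKM in Grem1 and was not called, with the sign turned against that of Chr27_FK1 (-0.21, SE 0.61, limma adjusted p = 0.823). The Chr27_FK2 call ended when any 1 of the 4 libraries was left out.

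On unplaced chromosome 27 sequence, ChrUn27_FK12 had 0 RPKM in each control library and 14.2 and 5 RPKM in Grem1 (log2 change 3.26, SE 0.92, limma adjusted p = 0.0133). This call ended without GFP replicate 1 (0.0581), GFP replicate 2 (0.0542) or Grem1 replicate 1 (0.124). ChrUn27_FK5, whose values were within 2% of those of ChrUn27_FK12 in the feather and RA libraries, was at 1.5 and 0.6 RPKM in Grem1, well below ChrUn27_FK12, and was not called (limma adjusted p = 0.427). Summed, the pair was at 15.7 and 5.6 RPKM in Grem1 and was called higher (3.39, SE 1.05, limma adjusted p = 0.0217). The pair averaged 182.6 RPKM in beta-catenin and 238.3 RPKM in Spry2, and Grem1 was called lower against each (limma adjusted p = 0.00873 and 0.00595).

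The chromosome 25 feather keratins summed to 6328.8 and 5760.2 RPKM in GFP and to 8659.8 and 6750 RPKM in Grem1, without overlap and at a ratio of 1.27. Chr25_FK8 rose from 27.8 and 21.5 RPKM to 266.2 and 175.5 RPKM (log2 change 3.09, SE 0.47, limma adjusted p = 0.000143). Chr25_FK2 rose from 308.8 and 269.4 RPKM to 1399.4 and 848.1 RPKM (1.91, SE 0.41, limma adjusted p = 0.00216). Chr25_FK9 and Chr25_FK13 also rose, by 2.34 and 1.33 on the log2 scale. Those calls were less stable, since Chr25_FK9 and Chr25_FK13 were no longer called without GFP replicate 2 or without Grem1 replicate 1. In beta-catenin and Spry2, Chr25_FK8 averaged 844 and 290.2 RPKM and Chr25_FK2 1355 and 771.9 RPKM. None of Chr25_FK8, Chr25_FK2, Chr25_FK9 and Chr25_FK13 was called higher in Grem1 against either group. Chr25_FK11, the most abundant feather keratin of the control, was at 2487.8 and 2280.4 RPKM in GFP and at 1283.4 and 1517.7 RPKM in Grem1 and was not called (-0.77, SE 0.45, limma adjusted p = 0.204).

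**Figure D5:**
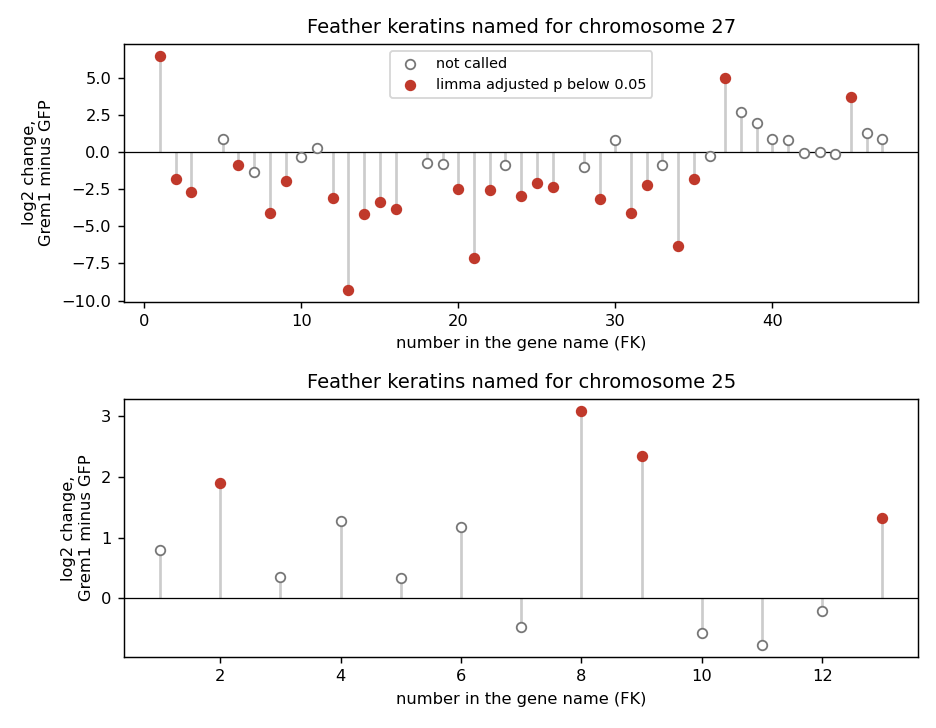
The y axis gives the log2 change from GFP to Grem1 of each tested feather keratin named for chromosome 27 (top) and chromosome 25 (bottom), and the x axis the number in the gene's name, with filled points where limma's adjusted p was below 0.05. On chromosome 27, 21 of 44 genes were called lower and 3 higher (Chr27_FK1, Chr27_FK37 and Chr27_FK45), and on chromosome 25, 4 of 13 were called higher.

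Some genes set whole libraries apart and bear on this comparison. A set of 25 genes with Ensembl identifiers was at 0 in every library outside the beta-catenin, Grem1 and Spry2 groups. These genes had at least 1 RPKM in every library of those groups. They summed to 0 in both GFP libraries and to 758.2 and 761 RPKM in Grem1. All 25 were called higher, 0.671% of all calls, a direction set by how they were chosen. Another 22 genes had at least 1 RPKM in every beta-catenin, GFP, Spry2 and RA library and at most 0.5 RPKM elsewhere. They summed to 727.3 and 738.1 RPKM in GFP and to 0.8 RPKM in each Grem1 library. All were called lower (0.591% of calls), again a direction set by how they were chosen. GFP replicate 1 alone held 88 genes over 4 times any other library, 1561.1 RPKM in sum against 32.7 RPKM in GFP replicate 2. Of the 17 of them that were tested, 10 were called lower in Grem1. Their choice by a high GFP library set this direction, so the count cannot be compared with the 18.2% of all tested genes. No keratin was in these sets. The ratio of Chr27_FK45 to Chr27_FK46 also divided the libraries, at 6.79 and 4.84 in Grem1, 4.42 to 5.36 in beta-catenin and Spry2, and 0.971 to 1.04 elsewhere. No GFP library shares these features with the Grem1 libraries, so the division of the libraries and the gene delivered cannot be told apart in this comparison. Without the genes of these sets, 1533 were called higher and 2125 lower.

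Beta-catenin and Spry2 scales share the 25 genes with Grem1 scales, so Grem1 was set against each of them as well. Both groups, like GFP, had the other 22 genes on, because that set was chosen so. All 22 were called lower in Grem1 against each, a direction set by the same choice. What divides the groups in these 22 genes was not tested. These comparisons use the same Grem1 libraries as the one with GFP and are given side by side with it. Against beta-catenin, the effector of canonical Wnt signalling, 3119 genes (26.3%) were called, 1776 higher (15%) and 1343 lower (11.3%) in Grem1. Against Spry2, which dampens receptor tyrosine kinase signalling as a feedback inhibitor, 3613 genes (30.5%) were called, 892 higher (7.52%) and 2721 lower (22.9%). With median-ratio scaling, which raised the median of all genes in this last comparison by 0.15, the split was 1810 higher and 1491 lower, so 54.8% in place of 24.7% of calls were higher. Without Grem1 replicate 1 the counts were 1045 higher and 857 lower against beta-catenin, and 590 higher and 1720 lower against Spry2. Without beta-catenin replicate 2 they were 1181 and 785 against beta-catenin. The number lower against Spry2 was 1645 without Grem1 replicate 2, 1502 without Spry2 replicate 1 and 1697 without Spry2 replicate 2.

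Claw keratins placed Grem1 between those groups. Against Spry2 all 12 were called higher in Grem1, with a median log2 difference of 3.06, and this count stayed at 12 under each alternative tried. The Spry2 sums were 1694.3 and 4108.5 RPKM, so the Grem1 mean was 7.59-fold higher. Against beta-catenin, whose sums of 43153.8 and 30388.7 RPKM were like those of the control, 4 claw keratins were called lower and none higher (median -0.79). Those 4 calls were unstable, with 0 left without Grem1 replicate 1 or beta-catenin replicate 1 and in fits with 2 or 4 groups, and 9 without either Spry2 library.

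Feather keratins were lower in Grem1 than in beta-catenin, and against Spry2 the result depended on the Spry2 library. Against beta-catenin 60 of 84 were called lower and 1 higher, with a median log2 difference of -2.72, and 11.3% of all tested genes were lower there. The beta-catenin sums were 32316.1 and 51394.1 RPKM. Against Spry2 32 were called lower and 6 higher (median -0.43), where 22.9% of all genes were lower. The Spry2 libraries were far apart, at 7627.8 and 24998.9 RPKM, with replicate 1 below and replicate 2 above both Grem1 libraries. Without Spry2 replicate 2 the split was 21 higher and 19 lower, without Spry2 replicate 1 it had 2 higher, and without Grem1 replicate 2 it had 3 higher. Feather-like keratins were called higher in all 3 genes against Spry2 and in 1, Chr25_FL2, against beta-catenin. Without Grem1 replicate 1 these counts were 1 and 0, without beta-catenin replicate 1 the count against beta-catenin was 0, and without Grem1 replicate 2 or beta-catenin replicate 2 it was 2.

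Alpha-keratins were called higher in Grem1 more often than lower in each comparison, with 19 higher and 3 lower against beta-catenin (median 0.59) and 13 higher and 3 lower against Spry2 (median 0.28), or 0 lower there without Grem1 replicate 2. Of all genes tested, 15% were called higher and 11.3% lower against beta-catenin, and 7.52% higher and 22.9% lower against Spry2. KRT19 was at 1.4 and 2.4 RPKM in beta-catenin and at 5.8 and 3.6 RPKM in Spry2. Both groups were near the control and far below the Grem1 libraries at 58.2 and 31.9 RPKM, and KRT19 was called higher against each of them (limma adjusted p = 1.31e-06 and 3.89e-05). KRT18 showed the same order, with no more than 1.3 RPKM in beta-catenin and 2.9 RPKM in Spry2. The other simple-epithelium keratins, KRT7, KRT8 and KRT20, were called higher against beta-catenin. None of them was called against Spry2 (limma adjusted p = 0.577, 0.0897 and 0.165). Outside these groups KRT19 reached 62.6 RPKM, and KRT18 stood at 10.9 and 21.3 RPKM in normal feather. KRT73 differed from both genes, since it was also raised in beta-catenin (57.6 and 143.8 RPKM) and Spry2 (49.4 and 75.6 RPKM). It was not called against beta-catenin (limma adjusted p = 0.328). KRT1 was higher in Spry2, at 664.4 and 584.9 RPKM, than in Grem1, a difference that was not called (-0.70, SE 0.27, limma adjusted p = 0.0585).

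Of the 1561 genes higher against GFP, 424 (27.2%) were also called higher against beta-catenin and Spry2, and of the 2163 lower ones 420 (19.4%) were lower in all 3 comparisons. The 420 include the 22 genes described above that were off in Grem1. Among the higher ones were 8 keratins, namely Chr25_FL2, Chr25_Ktn4, KRT6C, KRT15, KRT18, KRT19, KRT23 and KRT80, where the calls of KRT6C and KRT15 against GFP ended when any 1 of the 4 libraries was left out. Among the lower ones were 9, namely Chr27_FK21, Chr27_FK29, Chr27_FK31, Chr27_FK32, Chr27_FK34, Chr27_FK35, ChrUn10_FK3, ChrUn27_FK1 and KRT13B. All 3 comparisons share the Grem1 libraries, and in each the 22 genes set Grem1 apart. What divides the groups there can enter both the 424 and the 420 and was not tested. Over all genes tested, 15% were called higher against beta-catenin and 7.52% against Spry2, and 11.3% and 22.9% lower. The share called in both was not computed. In 272 of the genes tested (2.29%) both Grem1 libraries lay above all 18 others of the series, and in 103 (0.868%) below. The keratins of the first kind were KRT5, KRT6C, KRT15, KRT23, KRT80, Chr25_Ktn3 and Chr25_Ktn4. KRT5 and Chr25_Ktn3 had the highest values of the series in Grem1 although neither was called against GFP. Those of the second kind were Chr27_FK34 and ChrUn10_FK3.

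One gene without a name had the largest change of all genes tested on the log2(RPKM + 1) scale. ENSGALG00000009724 was at 1.6 and 1.3 RPKM in GFP and at 2940.9 and 2865.8 RPKM in Grem1, 2000-fold higher (log2 change 10.21, SE 0.21, limma adjusted p = 3.19e-16). No other library of the series had more than 5.8 RPKM, so the gene was abundant in the Grem1 libraries alone. Whether this identifier is the delivered gene itself could not be looked up. Delivered transcript and a response to it therefore cannot be told apart here. Among identifiers called in all 3 comparisons, the others named for their large change against GFP belong to the sets described above. ENSGALG00000018383, among the 25 genes, had 0 RPKM in each GFP library and 25.3 and 32.8 RPKM in Grem1, with 16 to 21.2 RPKM in beta-catenin and Spry2. Its log2 difference was only 0.63 against beta-catenin and 0.56 against Spry2. ENSGALG00000022674 and ENSGALG00000022679, among the 22 genes, stood in GFP at 770.7 and 829.4 RPKM and at 268.1 and 274.4 RPKM, and were at 0.2 RPKM or less in both Grem1 libraries. By the ratio of means they were 5330-fold and 5420-fold lower, more than the 2000-fold of ENSGALG00000009724, but these ratios rest on Grem1 values at the last decimal of the table. In all, 36 genes had 0 RPKM in each GFP library and at least 1 RPKM in each Grem1 library, and 21 showed the reverse.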

How the data were processed

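RNA of 20 tissue samples in 9 groups was measured. Trizol extraction was followed by Illumina TruSeq V2 library preparation, per the labels' protocols. Values are RPKM that the authors deposited to 1 decimal; per the submitters' processing notes TopHat2, Partek and the chicken build galGal4 were used, with versions and settings not given in the sources used here. Read depth is unknown and raw counts were not used.

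From these values log2(RPKM + 1) was computed, genes with at least 1 RPKM in at least 2 libraries were kept (11863 of 16290), and the 9 groups were fitted together in limma (trend on level, 11 degrees of freedom left, prior 5.35), with Benjamini-Hochberg adjustment over all genes and calls below 0.05. An exact two-sided test of 2 against 2 cannot go below p = 0.333, and the calls therefore use the spread pooled over groups. Class sums add the RPKM of all measured members and carry no test. The fit was run on simulated data with independent noise and no library effects, which cannot show how well calls from 2 libraries a group hold. Ensembl identifiers are not paired with names in the table, and the reference table of symbols holds 0 of them.

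Keratins were named as the 12 largest rises and 12 largest falls that were called, did not overlap and reached 1 RPKM, with all members of the suprabasal, basal, simple, stress and follicle keratin lists. Identifiers were named as the 2 largest rises and 2 largest falls against GFP among those called in 3 comparisons with a mean of at least 5 RPKM. Other genes were named after their values were seen. The comparison, members and lists were chosen with earlier results of these data known. Alternatives were 2 other filters, a pseudocount of 0.1, 3 scalings, a replicate block, fits with 2 or 4 groups and a robust prior. Others were leaving out each library, leaving out 3 gene sets, and summing copies or pairs of genes, the last chosen after seeing the data. Versions were R 4.3.3, limma 3.58.1, Python 3.11.15, pandas 2.3.3, numpy 2.4.6 and matplotlib 3.10.9.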

Additional observations from a re-analysis of the deposited data

How the results depend on the processing

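Over all genes, requiring a mean of at least 5 RPKM gave 990 higher and 1129 lower genes against GFP, 798 lower against beta-catenin, and 566 higher and 1519 lower against Spry2, from fewer genes tested (7167). Fits with only the 2 groups compared gave 1244 lower genes against GFP and 893 against beta-catenin. Against Spry2, median-ratio scaling gave 1810 higher and 1491 lower, and quantile normalization 1702 and 1658; the cause was not tested. Leaving out 1 library at a time gave 926 to 1528 higher and 1314 to 2094 lower genes against GFP, 1045 to 1746 and 785 to 1345 against beta-catenin, and 590 to 876 and 1502 to 2696 against Spry2. Of the 79 keratin calls against GFP, 65 were kept without GFP replicate 1, 59 without GFP replicate 2, 58 without Grem1 replicate 1 and 66 without Grem1 replicate 2, and none turned. With lettered copies summed, the sign turned for KRT6A (0.06, limma adjusted p = 0.802) and KRT75B (0.39, 0.165). The sign also turned for Chr27_FK1 when summed with Chr27_FK2 (-0.21, limma adjusted p = 0.823). These 2 genes averaged 4.65 and 751 RPKM in GFP, and whether they are copies was not tested. Of 801 values of the 44 named genes under the alternatives, 779 kept their direction and side of the threshold, 16 lost the call, 3 gained one and 3 turned; KRT15 and KRT6C lost it with 2 groups (0.0648 and 0.0658). Of 648 counts per keratin class, 61 moved past 1.5-fold, among them feather keratins higher against GFP (10 to 6 without GFP replicate 2 or Grem1 replicate 1) and feather keratins against Spry2 without Spry2 replicate 2 (21 higher, 19 lower). The ratios of class sums kept their direction under median-ratio and non-keratin sum scaling and with any 1 of the 4 libraries left out; they were not computed after quantile normalization. Same-numbered Grem1 and GFP libraries did not deviate together across genes (r = 0.0722). With 2 libraries in each group this cannot show whether same-numbered libraries shared a batch. With the replicate block 1556 genes were higher and 2176 lower against GFP, and Chr25_Claw8, Chr25_Claw12 and KRT13A lost their calls. The table gives no read depth, and values under 1 RPKM rest on 1 decimal.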
